A study of Sus scrofa with 12 samples.

Results

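The regions described here are stretches of open chromatin inside protein-coding genes of the pig that held at least 2-fold more reads in Duroc than in Luchuan muscle. They were chosen by their reads. Overlapping peak intervals on chromosomes 1 to 18 were merged into 136586 regions, and each was represented by its longest interval. A region was kept if it held 100 or more reads of both breeds together, if its scaled log2 ratio of Luchuan to Duroc reads was -1 or lower, and if it held more than 5 Luchuan reads. Its midpoint also had to lie in the body of a protein-coding gene and more than 2 kb from the ends of all genes. In all, 1446 regions met the rule, out of 32347 regions inside genes with 100 or more reads. A negative ratio always means more reads in Duroc.

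Transposase-accessible chromatin was sequenced (ATAC-seq) in the longissimus dorsi, the long muscle of the back, of 3 Duroc and 3 Luchuan boars aged 180 days and raised under the same feeding. Duroc is a lean Western breed and Luchuan an obese Chinese breed with thinner muscle fibres, and neither group carried a treatment or an altered allele. The deposited table holds 1 count per region and breed with no replicate number. The values were read as counts that the authors pooled over the boars, which the sources used here do not state. They have no SD, and no test between animals was possible. The pooled counts summed to 20275757 Duroc and 13460021 Luchuan reads over all regions, and the Luchuan counts were therefore multiplied by 1.51.

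In ATAC-seq a transposase cuts and tags DNA that is not wrapped in nucleosomes, so the number of reads in a stretch follows how often it is open in the sampled nuclei. Open stretches at gene ends often belong to promoters, whereas many of those deep inside genes are enhancers, short elements bound by transcription factors that can act on the host gene or on another gene at a distance. Skeletal muscle is a mixture of fast and slow fibres, satellite cells, fibroblasts, vessel, nerve and immune cells. In such bulk tissue, fewer cells of a type and less open chromatin per cell cannot be told apart. The annotation used here has no strand and no exons, so introns, exons, untranslated regions and promoters were not separated. All positions are on Sscrofa11.1, which was assembled from a Duroc animal, so that breed and likeness to the reference cannot be told apart.

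Most of the chosen regions were shallow, with a median of 175 reads of both breeds against 231 in the other regions inside genes, and their bias was moderate. They held 76 to 931 Duroc reads, with a median of 140, and 6 to 267 Luchuan reads, with a median of 34. The other regions inside genes also had a median of 140 Duroc reads, but their median of Luchuan reads was 91. Both counts were used by the rule, so these medians only describe the choice. The scaled log2 ratio ran from -3.86 to -1.001 with a median of -1.29, which corresponds to 2.44-fold more reads in Duroc. It was -1.5 or lower in 451 regions, -2 or lower in 158 and -3 or lower in 11. For each region a 95% Clopper-Pearson interval of the Luchuan share of its reads was moved to the scaled log2 ratio. This interval lay wholly below 0 in all 1446 regions and wholly below -1 in 467 of them (32.3%). That all lay below 0 follows from the minimum of reads and the ratio limit of the rule, so nothing is read from it. The interval covers counting error only, because each breed has 1 count. It treats every read as a separate molecule, so reads that are PCR copies of 1 molecule would make it too narrow.

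**Figure D1:**
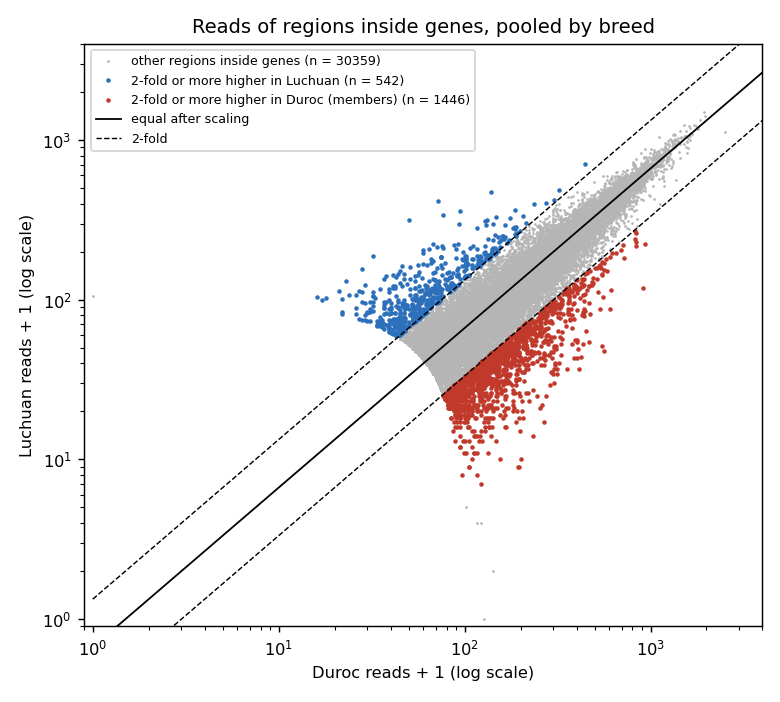
Duroc reads (x axis) and Luchuan reads (y axis) of the regions inside genes, 1 added to each, on log scales. Each point is a region, pooled by breed. The 1446 Duroc-biased regions (red) lie below the lower dashed 2-fold line and the 542 Luchuan-biased regions (blue) above the upper one, and the solid line marks equal counts after scaling.

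The chosen regions made up 4.47% of the regions inside genes with 100 or more reads. The mirrored rule in the Luchuan direction found 542 regions, or 1.68%. Duroc-biased regions were thus 72.7% of the regions inside genes past 2-fold. The same rule found 1.65% of regions in the Duroc direction and 0.564% in the Luchuan direction at gene ends, and 6.57% and 2.32% between genes. The Duroc share of the regions past 2-fold was 74.5% at gene ends and 73.9% between genes, so the excess in the Duroc direction was also found outside gene bodies. These shares depend on the limits of the rule and on the scale as well as on the counts, and nothing further is read from them about the members. The minimum of 100 reads weighs Duroc reads more than scaled Luchuan reads. With a minimum that weighs both breeds alike, 1296 regions passed in the Duroc and 596 in the Luchuan direction.

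The share of Duroc-biased regions moved with depth. Among regions with at least 100 and under 150 reads it was 6.05%, from 150 to under 200 reads 6.21%, and from 300 to under 500 reads 3.33%. It was 1.36% from 500 to under 1000 reads and 0.434%, 7 of 1612 regions, at 1000 reads or more. The Luchuan-biased share fell over the same bins from 2.74% to 0.0620%. Strongly open regions inside genes were therefore seldom past 2-fold in either direction. Length behaved in a like way. Regions of 300 to under 400 bases had the largest Duroc-biased share (6.65%) and those of 1000 bases or more the smallest (1.23%), with 1.89% for those under 200 bases. The part of depth in the choice of the regions was not tested.

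The medians of position and length differed little between the chosen and the other regions. The chosen regions' median distance to the nearest gene end was 22.1 kb, against 22.2 kb for the other regions inside genes, and the median length was 394 against 398 bases. The share of chosen regions still moved with length, by the values in the bins of length. By chromosome the share ran from 3.44% on chromosome 10 to 6.40%, 50 of 781 regions, on chromosome 11. The authors' peak calls moved with the rule. Of the chosen regions 1081 (74.8%) had been called as a peak in Duroc only, 365 (25.2%) in both breeds and 0 in Luchuan only. Of the other regions inside genes 12.6% were called in Duroc only and 83.3% in both. The calls rest on the same reads as the rule and are given as a description.

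The chosen regions with the most reads were long stretches that were open in both breeds. A region of 1234 bases in KIRREL3, an adhesion protein of the immunoglobulin superfamily, held 931 Duroc and 223 Luchuan reads (chr9:53610975-53612208), a ratio of -1.47 with a counting interval of -1.69 to -1.26. One in IL1R1, the receptor of interleukin 1, held 835 and 259 reads (chr3:52252366-52253338), a ratio of -1.09. The longest chosen region, 1366 bases in AFAP1L2, an adaptor linked to actin, held 826 and 267 reads (chr14:124638614-124639979, ratio -1.03). All of these were called as peaks in both breeds. GALNT17, of a family of sugar transferases, held 833 and 230 reads in 1 region (chr3:15059862-15061107, ratio -1.26). GRIK4, a kainate receptor subunit of glutamate signalling, held 822 and 239 (chr9:47937750-47938939, ratio -1.19). MED27, a subunit of the Mediator complex that links enhancers to RNA polymerase II, held 836 and 216 (chr1:271920060-271921083, ratio -1.36). The other very long regions were a second one in KIRREL3, with 905 and 117 reads over 1314 bases (chr9:53627486-53628799, ratio -2.35), and one in CCDC63 with 721 and 182 over 1298 bases (chr14:32203278-32204575, ratio -1.39). Of these long regions, the second one in KIRREL3 was the only one called in Duroc only.

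The most biased of the chosen regions held few Luchuan reads, so the size of their bias was loosely bounded. Regions inside genes with 5 or fewer Luchuan reads were left out by the rule, and their ratios reached -6.40. The lowest ratio among the chosen regions was found in CADM3, a cell adhesion protein of nerve cells, with 196 Duroc and 8 Luchuan reads (chr4:91235830-91236221). Its ratio was -3.86, or 14.5-fold, and its counting interval ran from -5.26 to -3.02. BCAS1, known from myelin-forming cells, had 192 and 8 reads (chr17:54970695-54971109, ratio -3.83). Its interval, -5.23 to -2.99, overlapped that of CADM3 almost wholly, so the order of these regions is not set by the counts. ARMT1 had 201 and 9 reads (chr1:14781913-14782257, ratio -3.75) and SH3TC2, needed for myelination by Schwann cells, 121 and 6 (chr2:150239712-150240186, ratio -3.53). DIAPH3, a formin that nucleates actin filaments, had 231 and 13 (chr11:32916950-32917446, ratio -3.46), and SCD5, a stearoyl-CoA desaturase, 267 and 16 (chr8:135555145-135555540, ratio -3.39). All 6 were called in Duroc only and spanned 345 to 497 bases. None of the 6 genes had more than 2 chosen regions.

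At the limit, regions inside and outside the rule had nearly the same counts. Just inside lay regions in HSD17B4 with 213 Duroc and 70 Luchuan reads, in TLN2 with 207 and 68, and in FSIP2 with 207 and 68, all with a ratio of -1.001. Just outside lay regions in CNKSR3 with 315 and 104 reads (-0.998), in TRDN with 101 and 33 (-0.99) and in TRPM7 with 86 and 28 (-0.99). The intervals of all these regions spanned -1, and another 5 regions past the limit were left out because they held 5 or fewer Luchuan reads.

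The chosen regions fell in 1058 genes, 14.9% of the 7079 genes with a region that could be chosen. Most of these genes, 814, held a single one. Several were held by 244 genes, 5.44% of the 4487 genes with 2 or more regions that could be chosen, and these genes held 649 of the chosen regions (44.9%). There were 165 genes with 2, 42 with 3, 18 with 4, 9 with 5, 4 with 6, 3 with 7 and 1 with 8. MYH4 held 10 and KIRREL3 13. In the Luchuan direction 409 genes held a region, 82 held several, and the largest number was 8. Of the 244 genes with several Duroc-biased regions 215 held no Luchuan-biased one. Most of all 7079 genes held none either, since 409 did hold one, so nothing is read from this number. A total of 1429 chosen regions lay in 1 gene and 17 in overlapping genes, where they were counted for each.

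Long genes had more regions that could be chosen. The median gene length was 51.9 kb for genes with no chosen region, 111 kb for those with at least 1, 203 kb for those with several and 387 kb for those with 5 or more. The median number of regions that could be chosen rose in the same order, from 2 to 5, 8 and 22 per gene. By the length of the host gene the share of chosen regions stayed between 3.80% and 5.63%. A count of chosen regions is therefore read below against the number of regions in the gene that could be chosen.

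**Figure D2:**
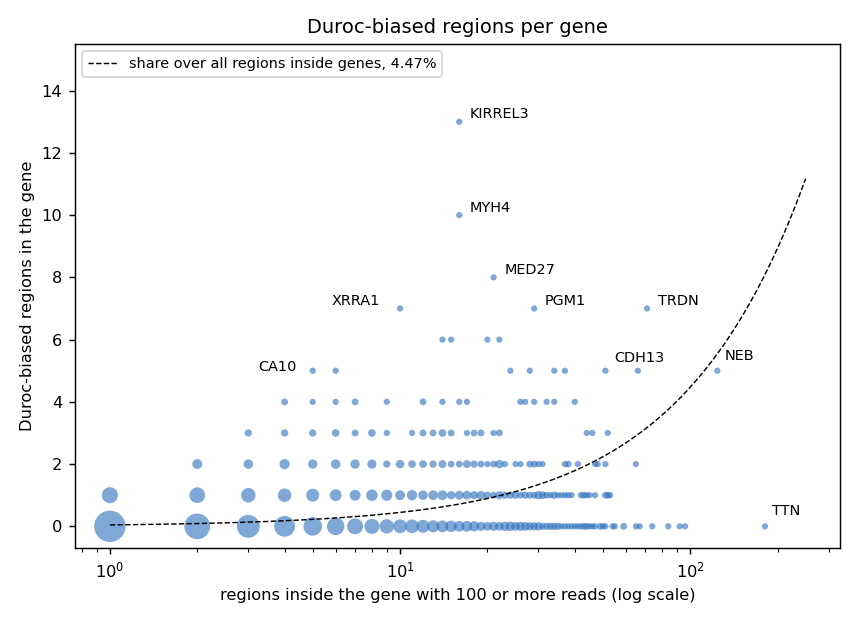
Number of Duroc-biased regions in a gene (y axis) against the number of regions inside the gene with 100 or more reads (x axis, log scale). Each dot stands for the genes at that pair of numbers, larger for more genes. The dashed line is the share over all regions inside genes, 4.47%. KIRREL3 (13 of 16) and MYH4 (10 of 16) lie far above it, NEB (5 of 124) close to it and TTN (0 of 181) below it.

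MYH4 encodes the myosin heavy chain of the fastest fibres, type IIB, which are abundant in the pig longissimus. It lies on chromosome 12 (chr12:55190545-55216294) and is only 25.8 kb long, yet 10 of its 16 regions that could be chosen were chosen (62.5%), and all 16 had a ratio below 0. The lowest was at chr12:55209999-55210509, with 272 Duroc and 24 Luchuan reads, a ratio of -2.86 (interval -3.58 to -2.31) or 7.25-fold. Directly next to it lay regions with 306 and 39 reads (chr12:55210511-55211025, ratio -2.35), 163 and 30 (chr12:55211033-55211294, ratio -1.81) and 141 and 35 (chr12:55211349-55211565, ratio -1.39). These 4 regions nearly adjoined, so they were separate peak calls but not clearly separate elements. A second group lay nearer to the middle of the gene, from chr12:55200360 to chr12:55205437. Its 6 regions had ratios from -1.83 to -1.12, and the deepest held 607 Duroc and 185 Luchuan reads (chr12:55204527-55205437, ratio -1.12). The 7 chosen regions from chr12:55203661 to chr12:55211565 followed each other without any other deep region between them, and together they held 1820 Duroc and 388 Luchuan reads.

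The 4 regions at the ends of MYH4, which the rule had not used, had a median of -0.28. The 6 inner regions that were not chosen, above the limit by the rule, had a median of -0.59. The neighbouring fast myosin genes held no chosen region, although their ratios were also negative. MYH1 (type IIX) had 9 regions that could be chosen with a median of -0.28, and MYH2 (type IIA) had 2 with a median of -0.71. How reads that match more than 1 copy of these similar genes were placed is not given in the sources used here, so the counts in fast myosin genes are uncertain to that extent.

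KIRREL3 held the most chosen regions. It spans 573 kb of chromosome 9 (chr9:53493735-54066490), and 13 of its 16 regions that could be chosen were chosen (81.3%). The median ratio of the 16 was -1.58, and all of them were below 0. All 13 began within 236 kb of the lower-coordinate end of the gene, and they formed runs of 5 and of 6 without another deep region between them. The 3 inner regions that were not chosen lay 51.6, 88.9 and 267 kb from that end. No deep inner region lay farther into the gene, so this position is not particular to the chosen ones. The run of 6 held 2595 Duroc and 468 Luchuan reads over 124 kb, and the run of 5 held 1544 and 441 over 33.0 kb. The 1 region at a gene end had 197 and 53 reads and a ratio of -1.28 (interval -1.77 to -0.86). Regions of the gene with 30 to 99 reads, too shallow for the rule, did not share the bias. There were 13 of them, with a median ratio of 0.21.

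**Figure D3:**
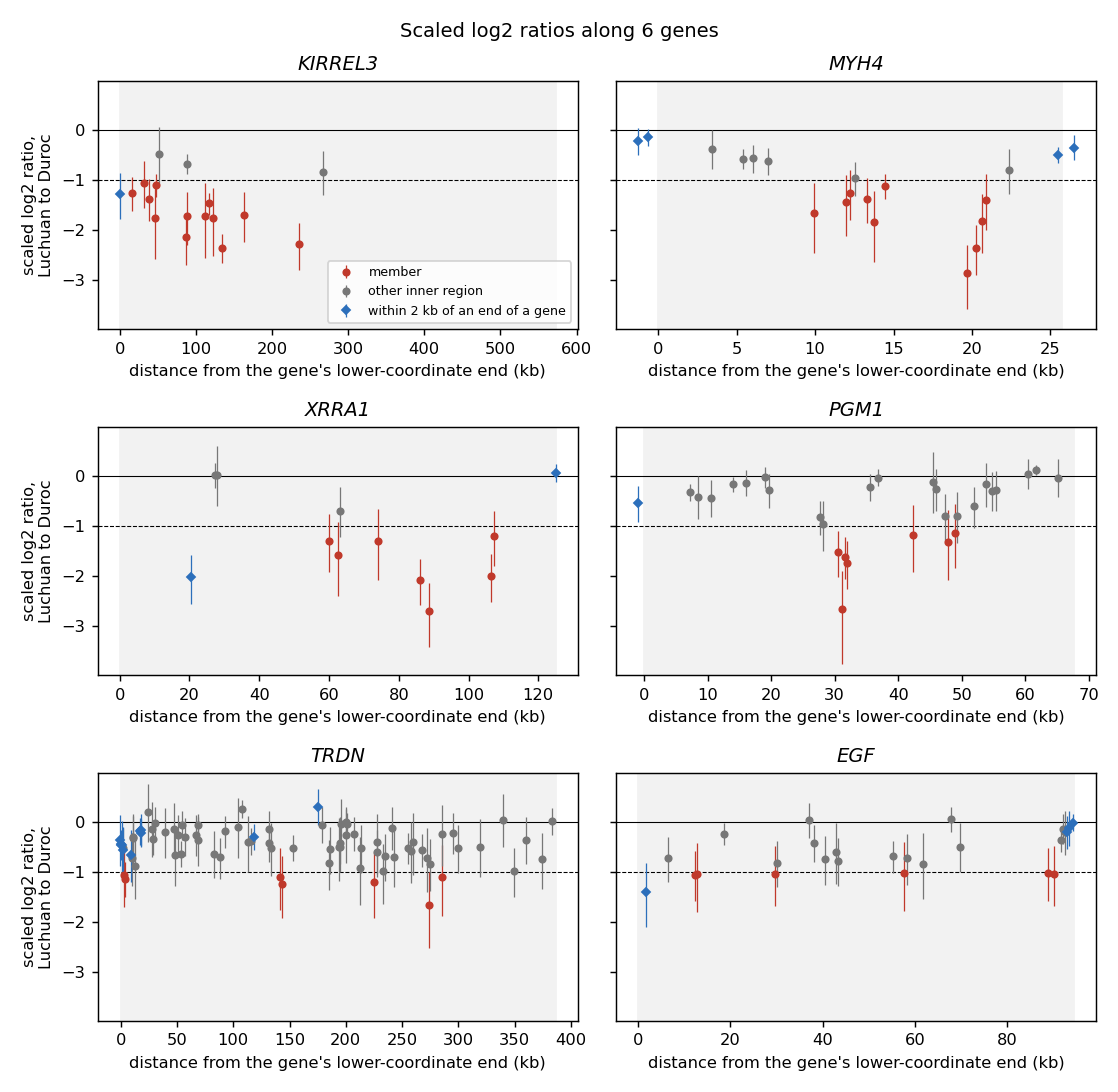
Scaled log2 ratio of Luchuan to Duroc reads (y axis) against the distance from the lower-coordinate end of the gene in kb (x axis) for KIRREL3, MYH4, XRRA1, PGM1, TRDN and EGF. Points are regions with 100 or more reads and bars their 95% counting intervals, the shaded span is the gene, and the dashed line is the limit of -1. Chosen regions (red) are grouped in MYH4 and PGM1 and lie just past the limit in EGF (-1.06 to -1.02). In KIRREL3 they begin within 236 kb of the lower-coordinate end, and the farthest other inner region is at 267 kb.

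XRRA1, on the same chromosome (chr9:9155703-9280693), held 7 chosen regions among 10. Their Duroc reads ran from 88 to 311 and their Luchuan reads from 20 to 48. The lowest ratio was -2.70, from 244 Duroc and 24 Luchuan reads (chr9:9244290-9244734, interval -3.42 to -2.15). The only region at an end of the gene, the higher-coordinate one, had a ratio of 0.06.

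PGM1 encodes phosphoglucomutase, which interconverts glucose 1-phosphate and glucose 6-phosphate and so joins glycogen to glycolysis. It held 7 chosen regions among 29 (24.1%) on chromosome 6 (chr6:148851183-148918891). A group of 4 followed each other within 1.76 kb, from chr6:148881538 to chr6:148883295, with 852 Duroc and 166 Luchuan reads. The lowest of them had 123 and 12 reads and a ratio of -2.66 (interval -3.76 to -1.91). The other 22 inner regions of PGM1, which are above the limit by the rule, had a median of -0.27. As in MYH4, these close regions were not clearly separate elements.

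MED27 held 8 chosen regions among 21, with Duroc reads of 80 to 836 and ratios from -1.69 to -1.02. Of these, 5 followed each other over 43.4 kb. MTUS2, a microtubule-associated protein, held 6 of 14, of which the lowest had 113 Duroc and 13 Luchuan reads (chr11:6467267-6467639, ratio -2.43) and the deepest 609 and 114 (chr11:6439584-6440418, ratio -1.82). All 14 regions of MTUS2 were below 0, with a median of -0.89. ZDHHC14, an enzyme that attaches palmitate to proteins, held 6 of 20, with ratios from -2.40 to -1.06. The uncharacterised gene LOC100523747 held 6 of 15.

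In CA10 and CDH1 every region that could be chosen was chosen. The same held for SF3B3 (4 of 4) and for other genes with 3 or fewer such regions, among them CLPX (3 of 3) and ADARB1 (2 of 2). CA10 is a secreted carbonic anhydrase-related protein without enzyme activity that is found in the nervous system. Its 5 regions lay in 32.0 kb near the lower-coordinate end of a gene of 640 kb and held 1470 Duroc and 378 Luchuan reads, and its region at the gene end had a ratio of -1.26. CDH1, the E-cadherin of epithelial cell contacts, had 4 regions within 11.2 kb with 688 and 116 reads and ratios from -2.24 to -1.67. PTPRR, a receptor-type tyrosine phosphatase that acts on MAP kinases, held 5 of 6. Its deepest region had 603 and 86 reads (chr5:34970700-34971507, ratio -2.20). RASGEF1C, a guanine nucleotide exchange factor, held 4 of 5 with ratios from -1.32 to -1.22. TMOD2, a tropomodulin that caps the slow-growing end of actin filaments, held 4 of 6 with ratios from -1.28 to -1.06.

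In other genes with many chosen regions these were a small part of the gene. TENM4, a teneurin of cell contacts, held 5 of 24. CAMTA1, a calmodulin-binding transcription activator, held 5 of 28, and DOCK9, which activates the GTPase CDC42, 5 of 37. In ADAMTSL1, a secreted matrix protein, 5 of 34 were chosen, and all 34 had a ratio below 0, with a median of -0.65. In CDH13, or T-cadherin, which binds adiponectin, 5 of 51 were chosen. CDH13 held 6 Luchuan-biased regions beside them, and its median was -0.10. WWOX, an oxidoreductase encoded by a very long gene, held 5 of 66 and 4 Luchuan-biased regions, with a median of -0.01. Regions of both directions were also held by KCNMA1, a calcium-activated potassium channel (3 and 2), and by LOC102164422 (2 and 2). The longest genes with a chosen region were TENM3 (2584 kb, 2 of 11) and PTPRD, a receptor-type phosphatase (2181 kb, 1 of 18).

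Chosen regions tended to lie next to each other. Of the adjacent regions of a chosen region in the same gene 18.9% (400 of 2111) were chosen too, against 3.47% of those of another region. The difference was largest for close neighbours. With a gap of up to 2 kb the shares were 36.2% and 1.79%, from 5 to 10 kb 16.4% and 3.58%, and over 50 kb 9.66% and 6.77%. The median ratio of the neighbour of a chosen region was -0.81 at up to 2 kb and -0.13 over 50 kb. Some of these neighbours nearly adjoined. In all, 28 pairs of consecutive chosen regions lay at most 100 bases apart and 61 at most 1000. There were 149 runs of 2 or more adjacent chosen regions and 28 of 3 or more. The longest were those of MYH4 (7) and KIRREL3 (6 and 5), followed by CA10, MED27, PTPRR and XRRA1 (5 each).

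**Figure D4:**
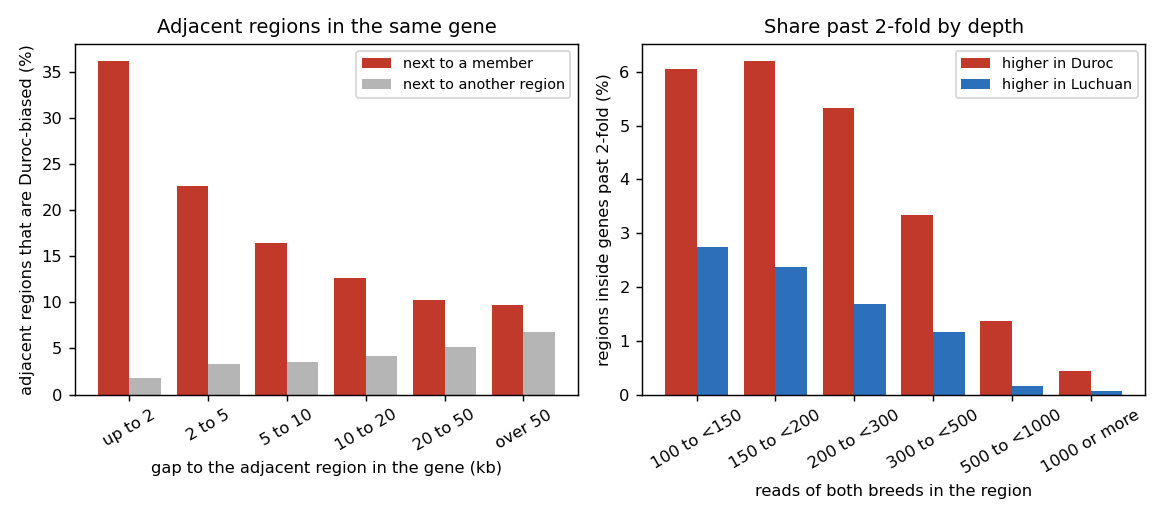
Left, percent of adjacent regions in the same gene that were Duroc-biased (y axis) by the gap in kb (x axis), next to a Duroc-biased region (red) or another region (grey), where the shares are 36.2% and 1.79% up to 2 kb and 9.66% and 6.77% over 50 kb. Right, percent of regions inside genes past 2-fold (y axis) by reads of both breeds (x axis), higher in Duroc (red) or Luchuan (blue), where the Duroc share is 6.05% at 100 to under 150 reads and 0.434% at 1000 or more.

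Regions at the ends of the same genes were not used by the rule and were nearly balanced. Their median ratio was 0.05 in genes without a chosen region (8818 regions) and 0.00 in genes with at least 1 (1581 regions, quartiles -0.20 and 0.14). It was -0.04 in genes with 2, -0.05 in genes with 3 or 4, and -0.22 in genes with 5 or more. In this last set, 31 regions at the ends of 16 genes, 80.6% were below 0 and 3 were past 2-fold. Those 3 were the end regions of KIRREL3 and CA10 and 1 of the 4 of EGF, which had 111 Duroc and 27 Luchuan reads and a ratio of -1.41. The other 28 were above -1, the limit that every chosen region had to pass. Of the 31, TRDN held 5, MYH4 and EGF 4 each, and NEB and ZDHHC14 3 each, so they were not spread evenly over the genes. In genes without a chosen region most end regions were above 0, by their median of 0.05. Inner regions with 30 to 99 reads, too shallow for the rule, had medians of 0.06 in genes without a chosen region, -0.05 with 1, -0.09 with 2, -0.16 with 3 or 4 and -0.41 with 5 or more. These come from the same pooled libraries as the choice, so they are given with no test.

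Among genes of muscle function, lists were described by their counts. In the list of sarcomere genes 27 of 786 regions were chosen (3.44%), against 4.47% of all regions inside genes, and 1 was Luchuan-biased. They lay in 9 of 41 genes. Of them 10 lay in MYH4, and without MYH4, left out after its values were seen, 17 of 770 remained (2.21%). The median ratio over the list was -0.13, against -0.05 over all regions inside genes. NEB, the ruler of the thin filament, held 5 of 124 (4.03%) and had a median of -0.34. XIRP2, an actin-binding protein of the muscle attachment site, held 3 of 14, of which the deepest had 256 Duroc and 71 Luchuan reads (chr15:73732485-73733058, ratio -1.24). TPM1, a tropomyosin that controls access of myosin to actin, held 2 of 13, with 438 and 133 reads (chr1:108989556-108990070, ratio -1.12) and 379 and 112 (chr1:108989092-108989515, ratio -1.16), and its median was -0.77. LDB3, of the Z-disc, held 2 of 22. TTN, the giant protein titin, had the most regions that could be chosen, 181, and 0 of them were chosen, with a median of 0.05.

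Calcium handling genes held chosen regions at close to the background share, with 23 of 551 (4.17%) in 13 of 30 genes and 3 Luchuan-biased ones. TRDN, or triadin, which holds calsequestrin at the calcium release channel, had 7 of 71 (9.86%). Of its 71 regions 67 were below 0, with a median of -0.43, and the 5 regions at gene ends had a median of -0.46. Its chosen regions were shallow, with 77 to 294 Duroc reads and ratios from -1.67 to -1.07. ATP2A1, the calcium pump SERCA1 of fast fibres, held 2 of 10, with 271 and 88 reads (chr3:18558437-18558795, ratio -1.02) and 154 and 49 (chr3:18565733-18565892, ratio -1.04). CACNG6, a subunit of a voltage-gated calcium channel, held 2 of 4. PVALB, the calcium buffer parvalbumin of fast fibres, had a single region that could be chosen, and it was chosen, with 299 Duroc and 83 Luchuan reads (chr5:10965107-10965686, ratio -1.25, interval -1.63 to -0.90). The annotated body of NCF4 (chr5:10876147-10994002, 3 of 8 chosen) spans PVALB, so this region was counted for both genes. RYR1, the calcium release channel itself, held 0 of 46, although 43 were below 0, with a median of -0.42.

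In the list of the dystrophin complex and the costamere, which tie the fibre to the matrix, 14 of 399 regions were chosen (3.51%) and 5 were Luchuan-biased. LAMA2, the laminin chain of the muscle basement membrane, held 4 of 29 and UTRN, the dystrophin relative utrophin, 3 of 22. Among genes of Hippo signalling and actin regulation 22 of 522 were chosen (4.21%), 3 were Luchuan-biased, and DOCK9 and FMN1, a formin, held 5 and 4. Among muscle transcription factors and their cofactors 9 of 656 were chosen (1.37%) and 10 were Luchuan-biased. TEAD1 and MAF held 2 each and MEF2C 1, with 210 and 66 reads (chr2:96136732-96137355, ratio -1.06). Genes of insulin, IGF and mTOR signalling had 4 of 360 (1.11%), including 2 in TBC1D4, which controls glucose transporter traffic, and 5 Luchuan-biased ones (1.39%). Genes of Wnt signalling had 5 of 176 (2.84%), of which 3 lay in the receptor ROR1, and 6 were Luchuan-biased. Genes of glycolysis, glycogen and mitochondrial energy use, a list without PGM1 (7 of 29), had 3 of 119 (2.52%) and 4 Luchuan-biased ones (3.36%). Among the 3 was 1 in CKM, the muscle creatine kinase (190 and 61 reads, chr6:51709193-51709433, ratio -1.03).

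**Figure D5:**
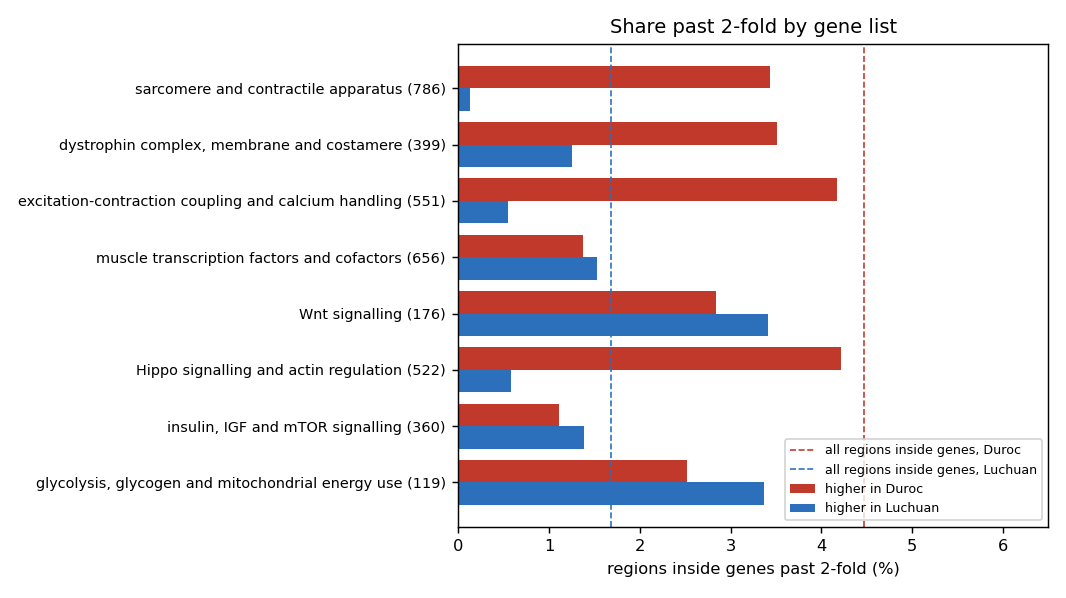
Percent of regions inside genes past 2-fold (x axis) in 8 gene lists (y axis, number of regions with 100 or more reads in brackets), higher in Duroc (red) or in Luchuan (blue), and dashed lines are the shares over all regions inside genes, 4.47% and 1.68%. All 8 Duroc shares lie below the Duroc line, from 4.21% for Hippo signalling and actin regulation to 1.11% for insulin, IGF and mTOR signalling. Lists with under 100 such regions and the study's candidate genes (13.6%) are not drawn. The small lists had shares of 12.5% (endothelial), 7.69% (nerve and Schwann), 4.55% (fibroblast), 2.78% (satellite cell) and 0% (adipocyte and immune). The drawn lists are therefore not all the lists. The list of glycolysis, glycogen and mitochondrial energy use does not hold PGM1 (7 of 29).

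The candidate genes that the study had named held regions past 2-fold in both directions, but they were chosen on these same samples, so their counts are not independent evidence. Of 125 regions that could be chosen in 15 of the genes, 17 were chosen (13.6%, against 4.47% of all regions inside genes), in 8 genes. Another 10 were Luchuan-biased (8.0%, against 1.68%), in 3 genes. EGF, the epidermal growth factor, held 6 of 22, and all 6 lay close to the limit, with ratios from -1.06 to -1.02, Duroc reads of 79 to 143 and Luchuan reads of 25 to 45. PPP1R14C, an inhibitor of protein phosphatase 1, held 4 of 16, and its deepest had 430 and 79 reads (chr1:15909848-15910470, ratio -1.84). TDRD7 held 2 of 8 and ASNS, the asparagine synthetase, 1 of 1, with 125 and 36 reads (chr9:77327170-77327628, ratio -1.18). CCNYL1 had 118 and 32 reads in 1 of 3 (chr15:110880397-110880698, ratio -1.26), and ABCA5, a lipid transporter, 191 and 35 in 1 of 14 (chr12:11136725-11137084, ratio -1.82). MYBPC1, the myosin-binding protein C of slow fibres, had 121 and 29 in 1 of 28 (chr5:82567752-82568000, ratio -1.43).

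Markers of other cell types held few regions inside genes, whereas the sarcomere list held 786. These numbers follow the size of the lists, with regions in 41 sarcomere genes against 5 to 8 genes in each marker list. Many of the 786 also lay in the giant genes TTN and NEB, so nothing is read from the contrast about the tissue. None of the 19 regions of adipocyte markers and none of the 13 of immune cell markers were chosen. The chosen ones were 1 of 8 for endothelial cells (TIE1), 1 of 22 for fibroblasts (COL15A1), 3 of 39 for nerve and Schwann cells (among them GFAP and NCAM1) and 1 of 36 for satellite cells (CALCR). Summed over all regions in and within 2 kb of their genes, these lists held 13204 Duroc and 9186 Luchuan reads for adipocytes, a scaled log2 ratio of 0.07, and 3882 and 2597 for immune cells (0.01). The ratios were -0.08 for endothelial cells, 0.10 for fibroblasts, -0.10 for nerve and Schwann cells and -0.04 for satellite cells, beside -0.15 for the sarcomere list. The summed signal of these marker lists thus differed little between the breeds, and the part of cell composition in the chosen regions was not tested.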

How the data were processed

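Chromatin accessibility was measured in 3 Duroc and 3 Luchuan boars, and the mRNA libraries were not used here. According to the labels and methods, low-quality sequence was removed with Trimmomatic (version 0.36), Bowtie2 placed the reads on Sus scrofa 11.1 and MACS2 called the peaks. Counting, duplicate removal, the transposase shift and pooling are not given in the sources used here. The authors deposited raw read counts per peak interval, 1 per breed, which were read as pooled over the boars. They also deposited their own rescaled log2 fold change, mean signal and p-value, which were not used. Starts, read as counted from 0, are given counted from 1. Rows on chromosomes X and Y were not used.

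The 211677 rows of chromosomes 1 to 18 were merged where they overlapped. The ratio was log2 of the scaled Luchuan count with 1 added over the Duroc count with 1 added, and the scale was the ratio of summed counts. Intervals were computed without the added count. Genes came from the RefSeq annotation of Sscrofa11.1, with 26902 genes of any type and 18722 protein-coding genes on these chromosomes. Ends of genes of any type were kept 2 kb away. Regions under 100 reads are given only where stated.

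The rule, the gene lists and the genes to name were chosen with earlier results of these data known. Named were the 20 genes with the most members, the 6 regions with the most reads and the 6 with the lowest ratio, the 3 on each side of the limit, the longest runs, regions and genes, the genes with the largest shares, up to 4 genes with the most members per list, the study's candidate genes with a member, and 5 genes with both directions. From some lists fewer were named. Some results for single genes are not reported here. TTN, RYR1, MYH1 and MYH2 and the lists of fast and slow fibre genes were chosen after their values were seen. Of the study's 19 candidate genes listed here, 18 matched by symbol. No test was made, since each breed has 1 count, and counting error alone sets the intervals. Alternatives varied the scale, the minimum counts, the limit, the added count, the distance from gene ends, the merging and the placement. Scripts were tested on simulated data and ran with Matplotlib 3.10.9, SciPy 1.17.1, pandas 2.3.3 and NumPy 2.4.6 under Python 3.11.15.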

Additional observations from a re-analysis of the deposited data

How the results depend on the processing

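No paired analysis was possible because the count columns give the breed only and carry no replicate number. For the same reason no animal could be left out. Named regions were recomputed only in some alternatives. These were scaling to a median ratio of 0, taking the interval with the most reads, and adding 5 to each count. None changed direction, but such small shifts could not turn ratios near -1 or lower, so nothing is read from this. The median ratio at the ends of genes with a chosen region, which is close to 0, changed sign in several alternatives. The number of regions stayed between 1158 (5 added to each count) and 1546 (scaled to a median ratio of 0) except under other limits. With a minimum of 50 reads there were 2393, in several per gene for 477 genes, the Luchuan-biased share was 2.71% and 84.1% were called in Duroc only. With a minimum of 200 reads there were 585 in 482 genes, with several in 74, a Luchuan-biased share of 0.964%, 53.7% called in Duroc only and a median gene length of 122 kb. With a limit of -1.5 there were 451 in 357 genes, with several in 66, shares of 1.39% and 0.535%, 92.0% called in Duroc only and a median gene length of 128 kb. Requiring more than 20 Luchuan reads gave 71.7% called in Duroc only, and the minimum that weighs both breeds alike, chosen after seeing the data, 72.1%. The median ratio at the ends of genes with a chosen region, 0.00049, became -0.0217 when scaled to a median ratio of 0, -0.0167 when scaled by regions called in both breeds and -0.0167 by all rows. It was 0.0184 with ends of 1 kb and -0.0250 with ends of 5 kb, where the median gene length was 122 kb. The cause of these changes was not tested, beyond the fewer or more regions that the limits keep. The other 103 values of this kind kept within their error or within 1.5 times the count. With 1 pooled count per breed, differences between boars of a breed are unknown, so no region can be called different between the breeds beyond counting error. Depth limits regions with few Luchuan reads the most.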

Other observations

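Genes typical of fast and of slow fibres were compared after their values had been seen, and with no test. In 11 fast-fibre genes with regions inside them, 14 of 60 regions were Duroc-biased (23.3%), and 91.7% had a ratio below 0, with a median of -0.57. Over all regions inside genes the share was 4.47% and the median -0.05. Of the 14, 10 lay in MYH4. Without MYH4, 4 of 44 were Duroc-biased (9.09%) and the median was -0.37. The 4 lay in ATP2A1, with 2, and in CASQ1, the calcium-storing calsequestrin of fast fibres, and PVALB, with 1 each. The region in PVALB lies in the body of NCF4 too. In 7 slow-fibre genes, 1 of 48 was Duroc-biased (2.08%), in MYBPC1, with a median of -0.19. At the ends of the genes the order was turned, with medians of -0.16 over 46 regions of fast-fibre genes and -0.36 over 21 regions of slow-fibre genes. No region inside genes of either list was Luchuan-biased. The share over all regions inside genes was 1.68%, so lists of 60 and 48 regions would hold few, and nothing is read from this.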
